A study of Homo sapiens with 4 samples.

Results

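The genes described here are 9 members of the MHC class I antigen presentation pathway: the heavy chains HLA-B, HLA-C, HLA-E and HLA-F, the light chain B2M, the peptide transporter subunits TAP1 and TAP2, the peptide loading factor TAPBP, and the regulator NLRC5. They were chosen by gene symbol, and each was found in 1 row of the deposited expression tables, 9 of 58735 genes listed. The samples were HaCaT cells (written HaCAT in the labels), an established human keratinocyte line, kept in serum-containing medium with no interferon named in the labels. The cells were transfected, with a lipid reagent, either with normal control siRNA (siControl, genotype WT) or with siRNA against ALKBH5 (siALKBH5, genotype ALKBH5 knockdown), with 2 libraries in each group. Poly-A RNA was sequenced to ask how the transcriptome of keratinocytes differs when ALKBH5, an eraser of the m6A mark on RNA, is depleted. Whether the duplicates came from separate cultures is not given in the sources used here, so p-values measure the spread between these libraries, which may be technical.

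MHC class I molecules display peptides from inside the cell to CD8 T cells and natural killer cells. A heavy chain folds with beta-2 microglobulin in the endoplasmic reticulum, where the TAP transporter delivers peptides from the cytosol and tapasin holds the empty molecule beside the transporter until a peptide fits. Keratinocytes carry class I molecules at rest, and interferons raise the whole set of genes through IRF and STAT factors and through NLRC5, which acts at the class I promoters.

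ALKBH5 (ENSG00000091542) had 1512 and 1576 counts with siControl and 956 and 816 with siALKBH5. This was 90.7 ± 4.42 CPM (counts scaled to a common library size; SD, n = 2) against 50.4 ± 1.13, or 55.5% of the control level, a residual level that limits the model to a partial knockdown. The libraries held between 16017502 and 18837807 counts on genes, and 15075 genes passed the expression filter of edgeR, including all 9 members. The 10 keratinocyte markers were detected in every library, with a summed level of 17600 to 23600 CPM. The summed levels of the other marker lists were 2.98 to 4.66 CPM for 8 leukocyte markers, 18.7 to 22.8 for 6 fibroblast markers, 32.5 to 35.5 for 4 endothelial markers and 2.72 to 3.89 for 4 melanocyte markers. PTPRC, which marks all leukocytes, had between 0 and 2 counts in any library, and KDR, COL1A2, PDGFRA and TYR had 0 counts in all 4. Other markers of these lists were detected, with 293 to 501 counts of VWF, 147 to 237 of CDH5, 268 to 310 of COL1A1 and 34 to 74 of CD14.

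The promoters of the class I genes are shown first, because these genes are known to share control elements, while HLA-B and B2M passed the test and HLA-C did not. RefSeq promoters (GRCh38.p14, 250 bases before to 50 bases after the start) were matched for 7 of the 9 members by symbol, the exceptions being HLA-E and NLRC5. The stretch from 160 to 41 bases before the RefSeq start is printed for B2M, which fell in siALKBH5, for HLA-B, which fell, and for HLA-C, which did not pass the test. It lies at chr15:44711357-44711476 on the plus strand for B2M, at chr6:31357220-31357339 on the minus strand for HLA-B, and at chr6:31272133-31272252 on the minus strand for HLA-C. None of the 3 stretches holds an exon base of its own gene in GENCODE 29, and that of HLA-B lies within the exon of AL671883.2, a pseudogene on the opposite strand with 0 counts in all 4 libraries. Capitals mark letters that match 1 of 3 short motifs on either strand: AANNGAAA, the core of an IRF site; CCAAT, the box read by NF-Y; and TGACG, the half-site read by CREB and ATF factors.
B2M: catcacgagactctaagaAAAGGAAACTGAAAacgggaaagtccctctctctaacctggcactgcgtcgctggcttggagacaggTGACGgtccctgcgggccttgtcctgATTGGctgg
HLA-B: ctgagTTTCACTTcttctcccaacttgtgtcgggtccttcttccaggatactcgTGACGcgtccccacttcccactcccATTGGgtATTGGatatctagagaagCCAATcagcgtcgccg
HLA-C: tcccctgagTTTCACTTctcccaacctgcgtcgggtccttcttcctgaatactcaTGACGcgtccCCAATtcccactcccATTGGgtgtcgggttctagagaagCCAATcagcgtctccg

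The HLA-B and HLA-C stretches were identical at 106 of 124 alignment positions, 85.5%, whereas B2M matched HLA-B at 42% and HLA-C at 41.9%. Both heavy chain promoters held the same TTTCACTT letters of the IRF core, read on the opposite strand, at 155 to 148 bases before the start in HLA-B and at 151 to 144 in HLA-C. In B2M the IRF core matched at 142 to 135 and again at 136 to 129 bases before the start, the matches sharing 2 bases. Over the whole RefSeq promoters, the IRF core was matched in 7 of 7 members, CCAAT in 5 and TGACG in 4, and the second RefSeq start of TAP1 had no match. Of 35116 RefSeq promoters of the same length, 22.8% held the IRF core, 34.6% held CCAAT and 24.6% held TGACG. In the printed stretch these shares were 9.78%, 20.9% and 11.9%. A match describes letters only, and factor binding was not measured. The motif map shows the same order of IRF core, TGACG and CCAAT letters towards the start in B2M, HLA-B and HLA-C, with 1 further CCAAT match before the IRF core in HLA-C.

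**Figure D1:**
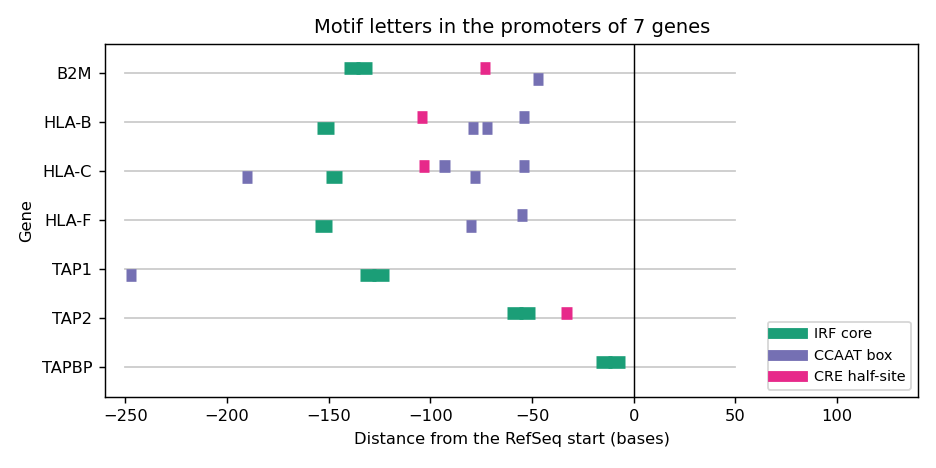
Positions of motif letters in the RefSeq promoters of 7 members, in bases from the RefSeq start (x axis), 1 line per gene (y axis). Blocks above a line are matches in the direction of the gene and blocks below are matches on the other strand; green marks the IRF core, purple CCAAT and pink TGACG. The IRF core of HLA-B, HLA-C, HLA-F, TAP1 and B2M lies over 100 bases before the start, and that of TAP2 and TAPBP lies nearer to it.

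Per kilobase of exon, B2M was the most abundant member in every library, at 249 to 326 CPM per kilobase. It was followed by HLA-E at 130 to 165, HLA-B at 58.3 to 75.9, HLA-C at 48.3 to 51.8, TAPBP at 39.9 to 46.9 and TAP1 at 16.9 to 17.9 CPM per kilobase. HLA-F at 4.61 to 5.82, TAP2 at 2.12 to 2.57 and NLRC5 at 1.15 to 1.24 CPM per kilobase were the least abundant members. The ranges of neighbours in this order did not overlap over the 4 libraries. The length is that of all annotated exons joined, 6079 bases for B2M and 12386 for NLRC5, so a gene read mainly from a short transcript is understated on this scale. Loss of reads from HaCaT alleles that differ from the reference genome was not tested, so the order of the heavy chains is uncertain.

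With ALKBH5 depleted, B2M, HLA-B and HLA-E fell to about the same fraction of their control level, 77.7%, 78.1% and 80.1%, while TAPBP rose to 112% of its control level. HLA-C, HLA-F, TAP1, TAP2 and NLRC5 did not pass the test. At an adjusted p under 0.05, 3 of the 9 members were called lower and 1 was called higher, where 17.3% of all tested genes were called lower and 19.3% higher. The siALKBH5 libraries lay below both siControl libraries in CPM for 7 members, a pattern seen in 33.5% of all tested genes, and above both for TAPBP, as in 32.8% of all tested genes. In TAP1 the groups overlapped. The median log2 fold change was -0.21 over the 9 members and -0.0081 over all tested genes. An exact permutation test over the libraries cannot go below a two-sided p of 0.333 with 2 against 2, so the adjusted p-values depend on sharing the estimate of spread across genes in edgeR. In bulk RNA, fewer cells that carry a transcript and less of it per cell cannot be told apart.

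**Figure D2:**
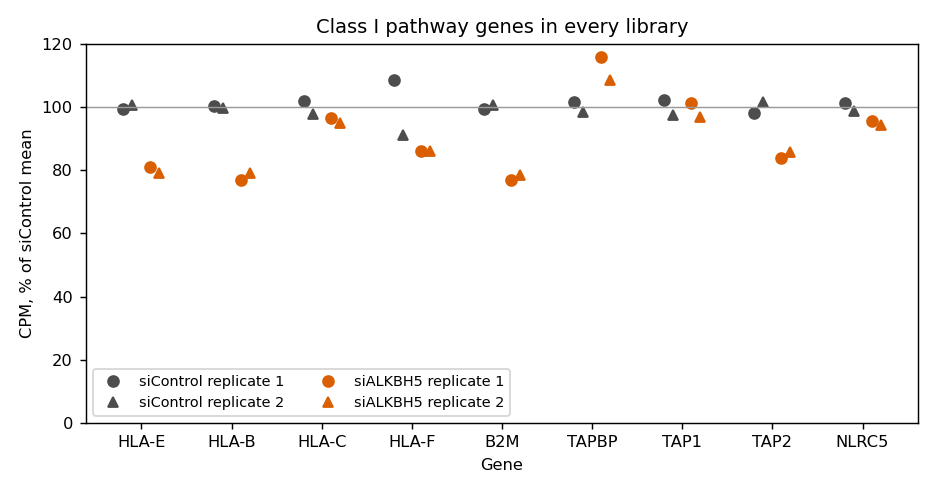
CPM of each member in each library, as a percentage of the mean of the 2 siControl libraries (y axis), by gene (x axis); grey points are siControl and orange points siALKBH5, circles replicate 1 and triangles replicate 2. The siALKBH5 points of B2M, HLA-B and HLA-E sit close to 80% of the control mean, those of TAPBP above 100%, and those of TAP1 among the control points.

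HLA-E (ENSG00000204592, chromosome 6 from 30489467 to 30494205 of GRCh38, plus strand) encodes the heavy chain that presents leader peptides of other class I chains to the CD94/NKG2 receptors of natural killer cells. It had 7810 and 8847 counts with siControl and 7399 and 6354 with siALKBH5, or 485 and 492 CPM against 396 and 386 CPM. Both siALKBH5 libraries lay below both siControl libraries, by more than the SD of either group, which was 4.94 CPM in siControl and 7.1 CPM in siALKBH5 (n = 2). Its log2 fold change was -0.32 (standard error 0.025, 95% interval -0.37 to -0.27, adjusted p = 1.9e-12 by the quasi-likelihood test of edgeR).

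HLA-B (ENSG00000234745, minus strand) is a classical heavy chain, which presents peptides to CD8 T cells. Its row spans chromosome 6 from 31269491 to 31357188, a span that reaches into HLA-C, although only 35 exon bases, 1.15% of those of HLA-B, are shared. HLA-B had 3733 and 4143 counts with siControl and 3324 and 3005 with siALKBH5, or 232 and 230 CPM against 178 and 183 CPM. The control libraries differed by less than 2 CPM, and both siALKBH5 libraries were lower. The log2 fold change of HLA-B was -0.36 (standard error 0.032, 95% interval -0.42 to -0.29, adjusted p = 5.3e-11 by the quasi-likelihood test of edgeR).

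HLA-C (ENSG00000204525, chromosome 6 from 31268749 to 31272130, minus strand) is the classical heavy chain that also serves as the main ligand of the KIR receptors of natural killer cells. It had 2094 and 2246 counts with siControl and 2296 and 1993 with siALKBH5, or 130 and 125 CPM against 123 and 121 CPM. The groups did not overlap, but the nearest libraries were 124.8 and 122.9 CPM, a gap smaller than the difference between the siControl libraries. The log2 fold change was -0.06, with an interval from -0.14 to 0.02 (adjusted p = 0.24 by the quasi-likelihood test of edgeR). That interval does not meet the interval of HLA-B, although the difference between the genes was not tested. Within a library, where scaling has no part, there were 1.78 and 1.84 HLA-B counts for each HLA-C count in siControl and 1.45 and 1.51 in siALKBH5.

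HLA-F (ENSG00000204642, chromosome 6 from 29722775 to 29738528, plus strand), a non-classical heavy chain of low abundance, had 407 and 382 counts with siControl and 374 and 330 with siALKBH5. These were 25.3 and 21.2 CPM against 20.0 and 20.1 CPM, so the siControl libraries differed from each other more than the nearest of them did from siALKBH5. The log2 fold change was -0.21 (95% interval -0.40 to -0.02, adjusted p = 0.083 by the quasi-likelihood test of edgeR), not called. It was called without siControl replicate 2, at -0.33 and an adjusted p of 0.017 from the same test, and was -0.08 without siControl replicate 1.

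B2M (ENSG00000166710, chromosome 15 from 44711487 to 44718877, plus strand) encodes beta-2 microglobulin, the light chain shared by all the heavy chains above. It had 31532 and 35623 counts with siControl and 28233 and 25442 with siALKBH5, which is 1957 and 1980 CPM against 1512 and 1546 CPM. The groups were far apart relative to their SD of 16.2 and 24.3 CPM (n = 2). The log2 fold change of B2M was -0.36 (standard error 0.018, 95% interval -0.40 to -0.33, adjusted p = 7.4e-18 by the quasi-likelihood test of edgeR).

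Among all genes with a mean of at least 10 CPM, those whose 4 log2 levels lay nearest to B2M after centring were DTWD1, HOTAIRM1 and RPL37. Their distances from B2M over the 4 libraries were 0.0084, 0.012 and 0.015 on the log2 scale. RPL37 is a protein of the large ribosomal subunit and HOTAIRM1 a long non-coding RNA of the HOXA cluster. Being chosen by this distance, the genes stood close to B2M, at 76.9% (DTWD1), 76.3% (HOTAIRM1) and 77% (RPL37) of their control level. The standard errors of their log2 fold changes, 0.088, 0.12 and 0.021 in the same order, were larger than these distances. HOTAIRM1 is annotated as antisense, and without strand its reads cannot be told apart from those of the gene it overlaps.

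TAP1 (ENSG00000168394, chromosome 6 from 32845209 to 32853978, minus strand) and TAP2 (ENSG00000204267, chromosome 6 from 32821833 to 32838780, minus strand) encode the subunits that pair to form the peptide transporter. TAP1 had 1383 and 1473 counts with siControl and 1585 and 1338 with siALKBH5, or 85.8 and 81.9 CPM against 84.9 and 81.3 CPM. The groups overlapped, and the log2 fold change was -0.01 with an interval from -0.11 to 0.08 (adjusted p = 0.89 by the quasi-likelihood test of edgeR). Its sign changed between alternatives, from -0.05 to 0.03. TAP2 had 256 and 296 counts with siControl and 253 and 228 with siALKBH5, or 15.9 and 16.4 CPM against 13.6 and 13.8 CPM. Both siALKBH5 libraries were lower, but at these counts the interval of the log2 fold change of -0.24 ran from -0.46 to -0.02, and TAP2 was not called (adjusted p = 0.086 by the quasi-likelihood test of edgeR). Of the exon bases of TAP2, 32.3% are also annotated to AL669918.1 on the same strand, a gene listed with 0 counts in all 4 libraries. How reads in shared bases were counted is not given in the sources used here, so the level of TAP2 may be understated.

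TAPBP (ENSG00000231925, chromosome 6 from 33299694 to 33314387, minus strand) encodes tapasin, which bridges the empty heavy chain to the transporter and favours tightly bound peptides. It had 3347 and 3628 counts with siControl and 4425 and 3664 with siALKBH5, or 208 and 202 CPM against 237 and 223 CPM. Both siALKBH5 libraries lay above both siControl libraries, with an SD of 4.3 CPM in siControl and 10.1 CPM in siALKBH5 (n = 2). The log2 fold change was 0.17 (standard error 0.033, 95% interval 0.10 to 0.24, adjusted p = 0.00014 by the quasi-likelihood test of edgeR). Against TAP1 in the same library, there were 2.42 and 2.46 TAPBP counts for each TAP1 count in siControl and 2.79 and 2.74 in siALKBH5. Against B2M, the ratio of counts was 0.106 and 0.102 in siControl and 0.157 and 0.144 in siALKBH5.

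NLRC5 (ENSG00000140853, chromosome 16 from 56989485 to 57083531, plus strand) encodes the class I transactivator, which binds the enhanceosome at the class I promoters. It had 247 and 269 counts with siControl and 270 and 235 with siALKBH5, or 15.3 and 14.9 CPM against 14.5 and 14.3 CPM. Its log2 fold change of -0.07 had an interval from -0.30 to 0.15, wide at these counts. NLRC5 was not called (adjusted p = 0.64 by the quasi-likelihood test of edgeR), and its difference from the other members was not tested.

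**Figure D3:**
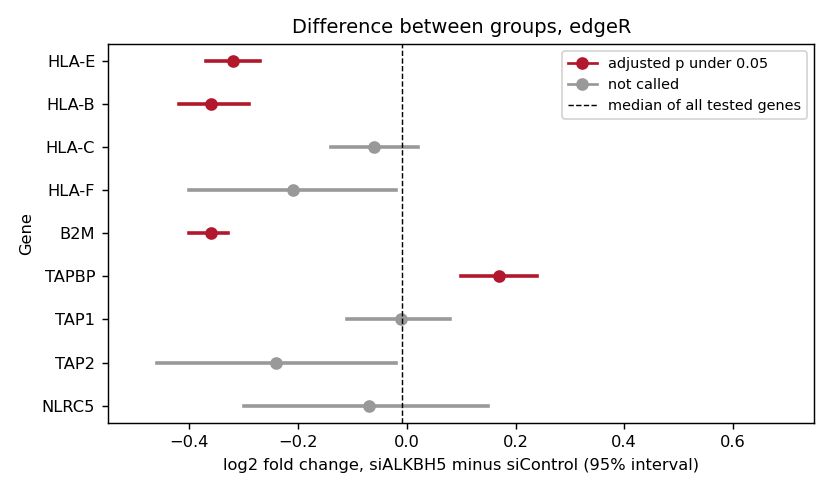
Log2 fold change of each member between siALKBH5 and siControl (x axis; points) with its 95% interval from edgeR (bars), by gene (y axis). Red marks an adjusted p under 0.05 and grey the members not called; the dashed line is the median of all tested genes, -0.0081, and B2M, HLA-B and HLA-E lie to its left with intervals that stay below -0.26.

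With the added threshold of 1 on the log2 scale, which the study's methods name, 0 of the 9 members were called by edgeR or at an unadjusted p, since no member changed by more than 0.36 on that scale. By that rule 2.92% of all tested genes were called, and the silenced gene ALKBH5 itself, at -0.85, was not.

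The 4 heavy chain members were next compared as a pool. Summed over HLA-B, HLA-C, HLA-E and HLA-F, the level was 870 ± 2.54 CPM in siControl and 714 ± 5.09 CPM in siALKBH5 (SD, n = 2), or 82% of the control level. There were 0.445 and 0.438 counts of these heavy chains for each B2M count in siControl and 0.474 and 0.459 in siALKBH5.

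Within this pool, the share of HLA-C was 14.9% (95% interval 14.3 to 15.5, exact Clopper-Pearson) and 14.4% (13.8 to 14.9) in siControl, and 17.1% (16.5 to 17.8) and 17.1% (16.4 to 17.8) in siALKBH5. HLA-B took 26.6% and 26.5% with siControl and 24.8% and 25.7% with siALKBH5, and HLA-E took 55.6% and 56.6% against 55.2% and 54.4%. HLA-F held 2.45 to 2.9% in every library. The share of HLA-C was thus higher in both siALKBH5 libraries than in both siControl libraries, and those of HLA-B and HLA-E were lower, although the intervals of single libraries overlapped for HLA-B and HLA-E. The intervals cover counting error only. The shares come from the same counts as the fold changes above, so they are not a separate result. How reads that match several HLA genes were assigned is not given in the sources used here. Loss of reads from alleles that differ from the reference genome was not tested. The split between the heavy chains is therefore uncertain.

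**Figure D4:**
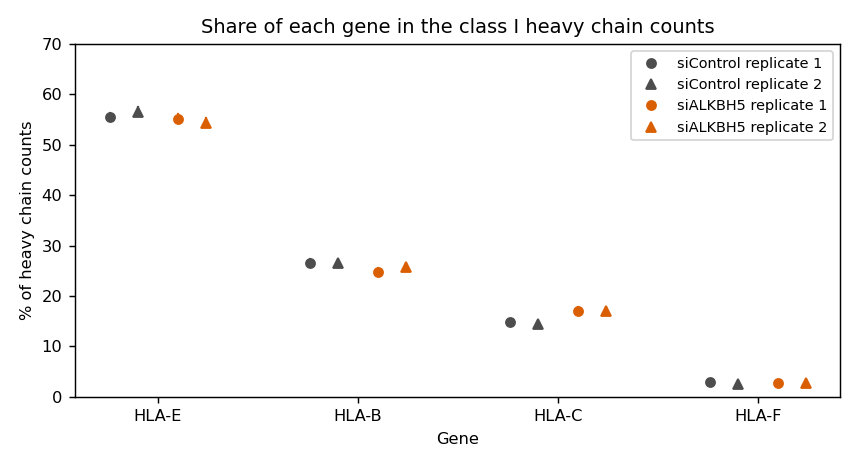
Share of each gene in the summed counts of HLA-B, HLA-C, HLA-E and HLA-F (y axis, %), by gene (x axis), 1 point per library with its exact 95% binomial interval, which is mostly shorter than the point; grey is siControl and orange siALKBH5. HLA-C takes a larger share in both siALKBH5 libraries, 17.1% in each, than in the siControl libraries.

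Of 13 class I HLA rows annotated as pseudogenes or non-coding, 4 passed the expression filter and 0 were called by edgeR or by DESeq2. At an unadjusted p under 0.05 in edgeR, 1 was lower, as were 3231 of all 15075 tested genes. Of all tested genes, edgeR called 17.3% lower and 19.3% higher, and DESeq2 called 8.15% lower and 12.1% higher. The 4 rows are too few to be read against these shares. HLA-H, HLA-K and HLA-V, which are pseudogenes, and HLA-F-AS1 had log2 fold changes of -0.85, -0.35, -0.36 and -0.52 at 17 to 55 counts per library, and 1 of them was called lower without siControl replicate 1. On the opposite strand, exon bases of HLA-F are shared with AL645939.1 (16.1%), HLA-F-AS1 (12.3%) and RPL23AP1 (5.92%). Of the exon bases of HLA-B, 17.8% are shared in this way with AL671883.2, and 9.49% of those of TAP1 with PSMB8-AS1. The part of these overlaps in the counts was not tested.

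Of 5 chaperones and editors of peptide loading in the endoplasmic reticulum, 4 rose and 1 fell, with a median log2 fold change of 0.19, where 19.3% of all tested genes were called higher and 17.3% lower. With DESeq2, 3 of them were higher and 0 lower, where that tool called 12.1% of all tested genes higher and 8.15% lower. CALR, the lectin chaperone calreticulin of the loading complex, had 3727 and 4328 counts with siControl and 6322 and 5738 with siALKBH5, with a log2 fold change of 0.54 (adjusted p = 2.1e-16, edgeR). PDIA3, the thiol reductase ERp57 bound to tapasin, rose by 0.52, and CANX, the lectin chaperone calnexin, rose by 0.13. UGGT1, the glucosyltransferase that returns misfolded glycoproteins to the lectins, rose by 0.19. TAPBPL, the tapasin-like peptide editor TAPBPR, had 309 and 300 counts against 269 and 227, and its log2 fold change of -0.34 (adjusted p = 0.013, edgeR) was not called with DESeq2 or without replicate 1 of siControl or replicate 2 of siALKBH5.

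Of 5 immunoproteasome and activator genes, 3 fell and 0 rose, against 17.3% and 19.3% of all tested genes, with 0 higher also at an unadjusted p under 0.05 and with DESeq2. PSMB10, an interferon-induced catalytic subunit, had 630 and 675 counts with siControl and 526 and 496 with siALKBH5 (log2 fold change -0.40, adjusted p = 5.5e-05, edgeR). PSMB9 changed by -0.21 and PSME1, the alpha subunit of the PA28 activator, by -0.10 on the log2 scale, while PSMB8 at -0.06 and PSME2 at -0.03 were not called. The count of lower genes was 1 with DESeq2, which called 8.15% of all tested genes lower. It was also smaller without siControl replicate 2 or without siALKBH5 replicate 1. The 3 constitutive subunits that the immunoproteasome subunits replace all rose, with PSMB6 up by 0.61, PSMB7 by 0.36 and PSMB5 by 0.30 on the log2 scale. The difference between these lists was not tested.

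Of 9 peptidases that trim or destroy class I peptides, 3 fell and 2 rose, where 17.3% of all tested genes were called lower and 19.3% higher. ERAP1, the aminopeptidase that trims peptides in the endoplasmic reticulum, had 882 and 1061 counts with siControl and 870 and 764 with siALKBH5, with a log2 fold change of -0.29 (adjusted p = 0.00022, edgeR). LNPEP, an aminopeptidase of endosomes, changed by -0.32 and LAP3, a cytosolic leucine aminopeptidase, by -0.21. THOP1, a cytosolic endopeptidase that destroys class I peptides, rose by 0.56, and NRDC rose by 0.16. NPEPPS, a cytosolic aminopeptidase, was at 0.02 and not called. The count of lower peptidases was 2 with DESeq2, which called 8.15% of all tested genes lower, and 2 with no filter. It was also smaller with any 1 library left out.

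Of 12 factors of the class I promoter and its enhanceosome, 2 were lower and 0 higher in the edgeR test, with 1 higher at an unadjusted p under 0.05 and 0 with DESeq2. The share called lower is close to the 17.3% of all tested genes, and 19.3% of all tested genes were called higher. CREB1, whose family reads the TGACG letters shown above, had 910 and 1090 counts against 866 and 781 (log2 fold change -0.32, adjusted p = 5.3e-05, edgeR). NFYB, a subunit of the CCAAT-binding factor NF-Y, was at -0.25 (adjusted p = 0.029, edgeR). RFX5, part of the complex that NLRC5 joins, was at -0.07, and IRF1, an interferon-induced activator of class I promoters, at -0.11, both not called. The count of lower genes was 1 with DESeq2, which called 8.15% of all tested genes lower, and 1 with no filter. It was also smaller with any 1 library left out.

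Of 9 genes listed under interferon gamma signalling, 3 fell and 0 rose, against 17.3% and 19.3% of all tested genes. The list also gave 0 higher at an unadjusted p under 0.05 and with DESeq2. Of the 3 lower genes, STAT2 and IRF9 are factors used by type I interferons, and IFNGR1 is a receptor chain of interferon gamma. STAT2 changed by -0.18 and IFNGR1 by -0.15. IRF9, at 32 and 45 counts against 22 and 20, had a log2 fold change of -0.91 (adjusted p = 0.031, edgeR). The other receptor chain, IFNGR2, at 0.13, and the receptor kinases JAK1 at -0.08 and JAK2 at -0.24 were not called. The count of lower genes was 0 with DESeq2, which called 8.15% of all tested genes lower and 12.1% higher, and 1 without siALKBH5 replicate 2.

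Of 18 interferon-stimulated genes, 8 fell, 1 rose and 9 were not called, where 17.3% of all tested genes were called lower and 19.3% higher. The median log2 fold change of the list was -0.18. DTX3L, a ubiquitin ligase, had a log2 fold change of -0.23 (adjusted p = 3.3e-05, edgeR). IFI6, a mitochondrial protein with low counts here, had 30 and 20 counts against 4 and 9, and its log2 fold change was -1.97 (adjusted p = 0.0023, edgeR). OAS3, a sensor of double-stranded RNA, moved against the list, with 928 and 1046 counts with siControl and 1493 and 1350 with siALKBH5 (log2 fold change 0.48, adjusted p = 1.8e-09, edgeR). The count of lower genes was 3 with DESeq2, where its share over all tested genes was 8.15%, and 5 without siControl replicate 1.

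Class I-like genes, which have the class I fold and in part serve as stress ligands, were mostly higher or not called. Of 18 listed, 13 passed the filter, 6 rose and 1 fell, against 19.3% and 17.3% of all tested genes, with a median log2 fold change of 0.25. ULBP3, a ligand of the NKG2D receptor, had 30 and 38 counts against 76 and 57 (log2 fold change 0.92, adjusted p = 0.0039, edgeR). MR1, which presents vitamin B metabolites to MAIT cells, rose by 0.13. FCGRT, the heavy chain of the neonatal Fc receptor and a partner of B2M, had 535 and 510 counts against 400 and 347 (log2 fold change -0.53, adjusted p = 8.8e-06, edgeR). The count of higher genes was 3 with DESeq2, which called 12.1% of all tested genes higher and 8.15% lower. It was also smaller with any 1 library left out. Of 13 class II genes, 8 passed the filter and 0 were called by edgeR, 0 at an unadjusted p under 0.05 and 0 with DESeq2. HLA-DQB1, a chain of the class II molecule HLA-DQ, had 367 and 412 counts against 365 and 417.

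**Figure D5:**
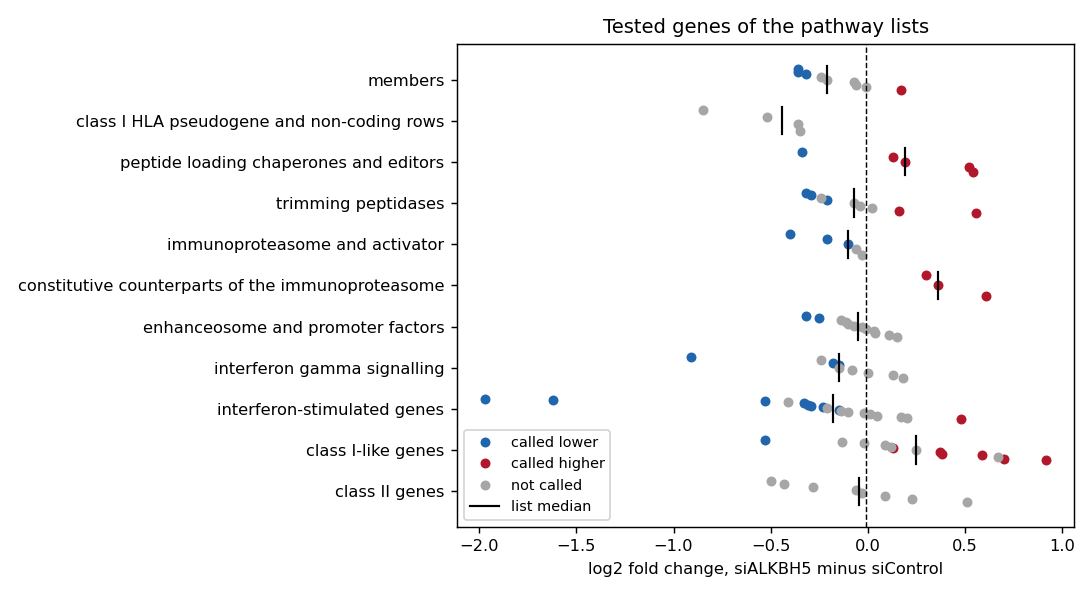
Log2 fold changes between siALKBH5 and siControl (x axis) of the tested genes of each list (y axis), 1 point per gene, with blue for called lower, red for called higher and grey for not called; the short line is the median of the list and the dashed line that of all tested genes. The chaperones, the constitutive proteasome subunits and the class I-like genes lie mostly right of the dashed line, at medians of 0.19, 0.36 and 0.25. The members and interferon-stimulated genes lie mostly left of it, at -0.21 and -0.18. So do the pseudogene and non-coding rows at -0.44, interferon gamma signalling at -0.15 and the immunoproteasome list at -0.1.

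Keratinocyte markers differed between the groups as well, in both directions. Of the 10 markers 5 were called higher and 2 lower, where 19.3% of all tested genes were called higher and 17.3% lower. Their summed level was 17940 and 17620 CPM in siControl and 23570 and 23630 CPM in siALKBH5. KRT5 alone went from a mean of 7034 CPM to 11250 CPM, up by 0.68 on the log2 scale. TP63 at -0.09 and ITGA6 at -0.07 were called lower, and LAMB3, CDH1 and EPCAM were not called. Of the fibroblast markers, DCN was at 52 and 71 counts against 24 and 29, and LUM at 33 and 31 counts against 15 and 16, both called lower, whereas COL1A1 had 268 and 309 counts against 310 and 267 and was not called. Of the other markers, VWF at 0.51 and CD14 at 0.64 were called higher and CDH5 at -0.69 was called lower on the log2 scale. The part of these shifts in the values of the class I genes was not tested. Mitochondrial genes took 10.2% of the counts with siControl, the same in both libraries, and 9.63% and 9.64% with siALKBH5.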

How the data were processed

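Poly-A RNA libraries were made by the authors, and the submitters' processing notes name CASAVA, HISAT2 2.0.5, featureCounts 1.5.0-p3, DESeq2 1.20.0 and hg38. The multi-mapping and strand settings are not given in the sources used here. The authors deposited raw counts per gene with FPKM and with columns of log2 fold changes and p-values of their own comparisons. Each comparison set 1 siALKBH5 library against the siControl library of the same number. The deposited FPKM and comparison columns were not used. The 4 count columns were fitted together in R 4.3.3 by the quasi-likelihood test of edgeR 4.0.16 after filterByExpr and TMM, with no covariates. Calls were made at a Benjamini-Hochberg adjusted p under 0.05 over 15075 genes. CPM were counts divided by the TMM-scaled library size. The common biological coefficient of variation was 0.0253. Alternatives were DESeq2 1.42.0, other scaling factors and filters, a log2 fold change of at least 1, a replicate block, and leaving out 1 library at a time. The steps were tested on simulated data. The members and lists were chosen with earlier results of these data known. Named genes were the 9 members, ALKBH5, the genes nearest to B2M and, per list, the gene with the highest mean CPM, not scaled for length, and the called genes with the largest change in each direction. Genes outside this rule (ERAP1, LAP3, NPEPPS, PDIA3, UGGT1, PSMB8, PSMB9, PSME2, PSMB5, NFYB, IRF1, IFNGR1, IFNGR2, JAK2, STAT2, the HLA pseudogenes and HLA-F-AS1) were named after their values were seen. Several cell type markers were also named outside this rule. Where both libraries of a gene were at 3 counts or fewer in a group, no fold change was given. Deviations of same-numbered libraries from their group means correlated at 0.042 over 15075 genes. The duplicates of a group differed by more than sampling noise, with a chi-square of counts over tested genes of 1.73 (siControl) and 1.85 (siALKBH5) per degree of freedom. Each library was kept as 1 replicate, but this spread does not tell separate cultures from technical duplicates. Some genes of the planned lists are not reported here, and the lists were counted without them.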

Additional observations from a re-analysis of the deposited data

How the results depend on the processing

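The counts of 1 higher and 3 lower members held under DESeq2, under its size factors or no scaling factors in edgeR, under both other filters and under the replicate block. With each library left out in turn, 1 member was higher and 3 to 4 were lower, the fourth being HLA-F without siControl replicate 2. The fit on the remaining 3 libraries assumes that the lone library of a group varies like those of the other. At a log2 fold change of at least 1, 0 members were higher and 0 lower, and 244 and 196 of all tested genes were called, by the construction of the threshold. DESeq2 called 1827 genes higher and 1229 lower, where edgeR called 2913 and 2610, and gave an adjusted p to 12736 of 15075 genes; the cause was not tested. Leaving out a library gave 2366 to 2528 higher and 1961 to 2124 lower genes. The replicate block follows the authors' own comparisons, each of 1 siALKBH5 library against the siControl library of the same number. Whether these libraries were paired in the experiment is not given in the sources used here, and their deviations correlated at 0.042. The block gave 3091 higher and 2831 lower genes and changed no call of a member. Over all alternatives the log2 fold change ranged from -0.39 to -0.35 for B2M, -0.38 to -0.34 for HLA-B, -0.34 to -0.30 for HLA-E, 0.12 to 0.21 for TAPBP, -0.09 to -0.03 for HLA-C and -0.26 to -0.21 for TAP2. Among the lists, the lower calls of the immunoproteasome, the peptidases, the interferon lists and TAPBPL changed with the setting, as given beside them, and 1 promoter factor was called higher with DESeq2 size factors, with the filter on mean counts, under the replicate block and without siControl replicate 1. TAP2, NLRC5 and HLA-F had 228 to 407 counts per library and the widest intervals among the members.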
